A study of Mus musculus with 4 samples.

Results

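Integrins are receptors of 1 α and 1 β subunit that tie a cell to its surroundings, and laminins are cross-shaped proteins of 1 α, 1 β and 1 γ chain that form the sheet of basement membrane around each cardiomyocyte and vessel. In heart muscle the α7β1 integrin binds laminin and passes force between the contractile apparatus and the basement membrane. The β1 subunit is shared with most α subunits, the αv subunit pairs with β1, β3, β5, β6 and β8, and the β2 and β7 subunits belong to leukocytes. The genes described here were all symbols of the integrin α and β subunits and of the laminin α, β and γ chains with at least 10 reads in at least 1 library. These were 37 genes, 26 of integrins and 11 of laminins, among 15589 symbols that passed the same minimum and 23337 in all. All 37 symbols that matched by name passed it. The weakest were Itgad, whose highest library had 11 reads, and Lama1, whose highest had 19, and 35 of the 37 had 100 or more reads in 1 library.

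The study addressed what the loss of PIMT does to gene expression in heart muscle. PIMT, encoded by Tgs1, is a coactivator-binding protein with RNA methyltransferase activity. Polyadenylated RNA of the heart was sequenced from 2 genotypes at 2 and 6 months of age, all of strain C57BL6/J. In csPIMT-/- mice a Cre transgene under the α-myosin heavy chain promoter, which is active in cardiomyocytes, removed the floxed part of PIMT from the late embryonic period on, and vessels, fibroblasts and leukocytes of the heart kept the gene. The control mice carried the floxed alleles (PIMT fl/fl), and no Cre transgene is named for them. Each group was 1 library of RNA from 5 pooled hearts of males and females, so no group has a replicate library. Differences between single mice are not visible in these data, and age, pool and library cannot be told apart.

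The libraries held 39854713 and 40705783 reads for PIMT fl/fl at 2 and 6 months, and 29823073 and 36172093 reads for csPIMT-/-. Tgs1 had 670 and 928 reads in the controls and 130 and 156 in csPIMT-/-, ratios of 0.271 and 0.194, lower in both libraries labelled csPIMT-/-. The Tgs1 transcript has 41.95% GC, and the ratios were 0.599 and 0.493 after subtraction of the trend of the ratios with GC content. Cardiomyocyte markers (6 genes) summed to between 26780 and 37220 CPM (reads per 1000000 of the TMM-scaled library total) in all libraries. The libraries stood apart in other markers. The atrial genes Sln, Myl7 and Myl4 summed to 70.9 and 1226 CPM in the controls of 2 and 6 months and to 3492 and 761 in csPIMT-/-, so the pools of each genotype stood far apart in them. The part of atrium in the values below was not tested. In RNA of a whole tissue, fewer cells of a type and less RNA per cell cannot be told apart.

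Ratios of csPIMT-/- over the PIMT fl/fl library of the same age use reads scaled by median-of-ratios size factors, and their 95% intervals hold counting error alone. A gene is said to have risen or fallen only where limma, fitted to all 4 libraries with genotype and age and adjusted by Benjamini-Hochberg over 14935 genes, gave an adjusted p below 0.05. That fit had 1 residual degree of freedom, which holds how far the genotype difference changed between the ages. Another 5.04 prior degrees of freedom were borrowed from the other genes. No group has a second pool, so the p-values do not measure the spread between pools of 1 group.

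These ratios moved with the base composition of the transcripts. Across genes, the log2 ratio at 2 months had a Spearman rho of 0.581 with the GC content of the longest transcript (13748 genes), and at 6 months 0.607 (13787 genes). Over the integrin and laminin genes the values were 0.463 and 0.539. Between the 2 controls, 6 over 2 months, rho was -0.261 over all genes and 0.197 over the members. All genes of a library share its preparation and depth, so these correlations are descriptions. Where a ratio is given with the GC trend subtracted, the fitted dependence of log2 ratio on GC was taken off. Whether GC content itself, or something that goes with it, moved the ratios was not tested.

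The pairs of related subunits below differed in GC content and in ratio. For each pair, the 30 codons in which the encoded proteins have the most residues in common are printed from the GRCm38 reference, coding strand, 5′ to 3′, with G and C in capitals, because the ratios moved with this property. The Itgb1 stretch lies at chr8:128713243-128713332 and that of Itgb5 at chr16:33875837-33875926, both on the plus strand within 1 coding exon. They encode the same residue at 25 of 30 codons, and 36 of the 90 bases of Itgb1 and 51 of those of Itgb5 are G or C.
Itgb1: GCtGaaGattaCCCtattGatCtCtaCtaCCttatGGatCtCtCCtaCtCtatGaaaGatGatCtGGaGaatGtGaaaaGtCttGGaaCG
Itgb5: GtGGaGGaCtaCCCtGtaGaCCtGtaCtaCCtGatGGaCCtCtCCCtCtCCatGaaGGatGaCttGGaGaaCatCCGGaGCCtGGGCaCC
The stretches of Itga6, chr2:71849435-71853551, and of Itga7, chr10:128954000-128957638, each cross an intron on the plus strand and are joined here over 2 coding exons. They too share 25 of 30 residues, with 43 and 54 G or C bases of 90.
Itga6: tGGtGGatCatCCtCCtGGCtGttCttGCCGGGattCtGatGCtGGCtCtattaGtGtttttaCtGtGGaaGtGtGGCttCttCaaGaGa
Itga7: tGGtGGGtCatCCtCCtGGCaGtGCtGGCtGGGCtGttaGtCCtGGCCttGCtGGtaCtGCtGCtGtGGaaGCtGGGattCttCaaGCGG
The laminin β chains share 29 of 30 residues in their stretches, at chr12:31272438-31278485 for Lamb1 and chr9:108480764-108481257 for Lamb2, again over 2 coding exons on the plus strand. Both hold 46 G or C bases of 90, so the pair does not differ in GC content here, although it does over the whole transcripts.
Lamb1: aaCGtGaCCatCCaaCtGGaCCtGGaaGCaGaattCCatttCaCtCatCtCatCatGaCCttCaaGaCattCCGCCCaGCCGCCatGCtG
Lamb2: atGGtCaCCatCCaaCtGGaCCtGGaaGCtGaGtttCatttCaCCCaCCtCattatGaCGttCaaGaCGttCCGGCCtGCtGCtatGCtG
Over the longest transcripts the GC content was 44.9% for Itgb1 and 57.0% for Itgb5, 48.9% for Itga6 and 57.8% for Itga7, and 52.5% for Lamb1 and 58.8% for Lamb2. The pairs were chosen with their GC content and ratios known, so they show the difference in letters and add no evidence on the ratios.

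Per kb of the longest transcript, Itgb1 was the strongest member in the controls, with a mean level of 167 CPM per kb over the 2 libraries, and Lamb2 followed with 152. Lamc1 (102), Itga7 (96.4), Lama2 (82.3), Lamb1 (79.3) and Lama4 (70.0) came next. Itgb1 and Lamb2 each differed by less than 1 unit between the 2 controls. Those of Lamc1 (127 and 76.4 at 2 and 6 months) and Lama2 (105 and 59.3) spanned the levels of their neighbours, so the order from Lamc1 to Lama4 is not fixed by these libraries. The leukocyte integrins lay far lower, from 3.63 for Itgb2 down to 0.0264 for Itgad. In the csPIMT-/- libraries Lamb2 was the strongest member, at 300.1 and 251 CPM per kb, and Itgb1 stood at 46.6 and 50.5.

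**Figure D1:**
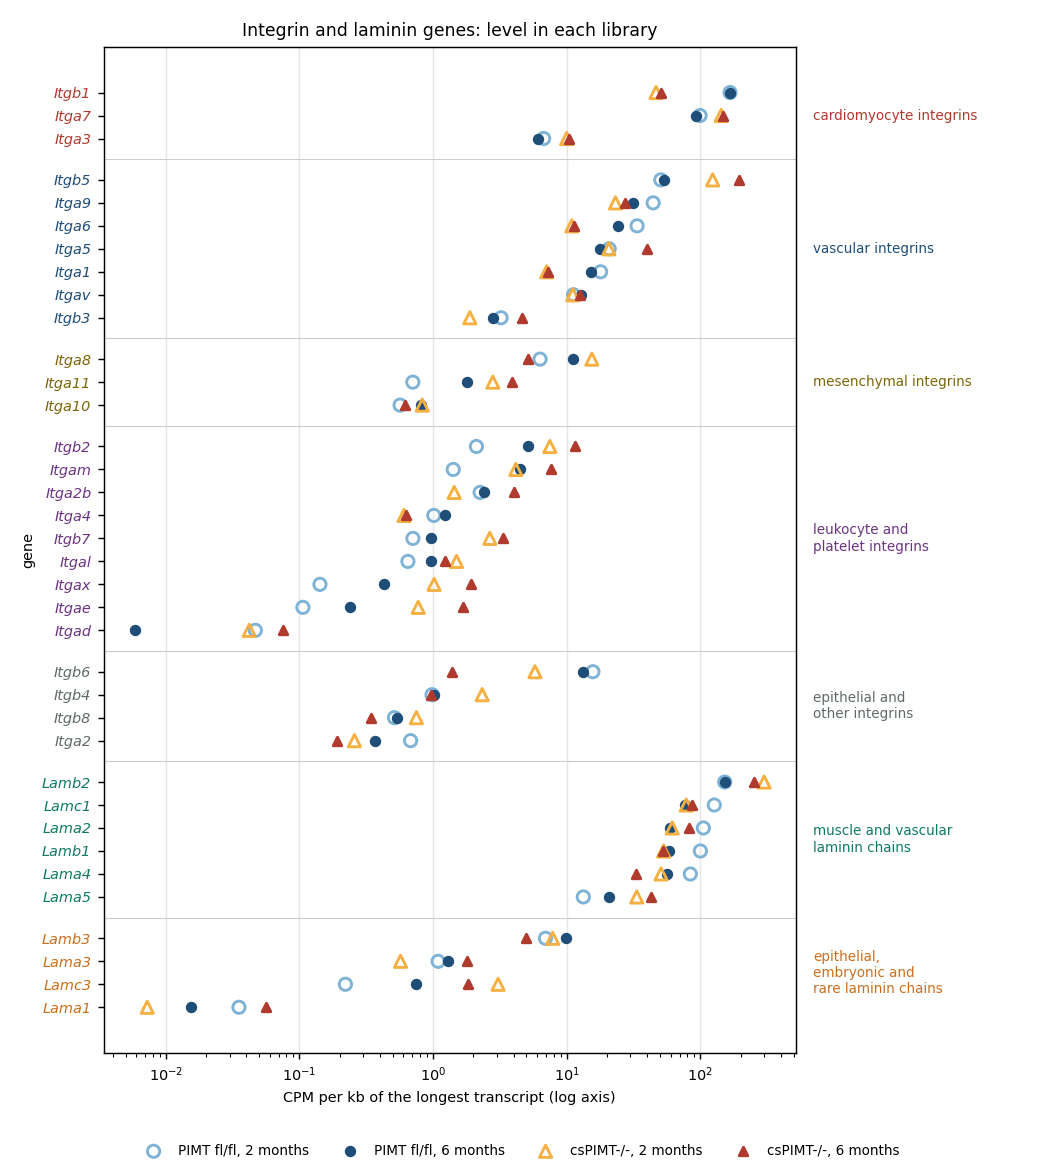
Level of the integrin and laminin genes in the 4 libraries, in CPM per kb of the longest transcript on a log axis. Circles are PIMT fl/fl and triangles csPIMT-/-, open at 2 months and filled at 6 months, 1 library each. Itgb1 lay near 167 in both controls and near 50 in both csPIMT-/- libraries, while Itgb5 and Lamb2 stood higher in csPIMT-/-.

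At 2 months 12 of 36 members (33.3%) stood past 2-fold higher in csPIMT-/-, against 16.4% of all genes, and 6 (16.7%) past 2-fold lower, against 23.0%. At 6 months the counts were 12 of 37 higher (32.4%), against 16.0%, and 6 lower (16.2%), against 25.7%. The median log2 ratio of the members was 0.27 at 2 months and 0.47 at 6 months, and that of all genes -0.03 at both. With the GC trend subtracted, 9 members were higher and 9 lower at 2 months (15.0% and 11.4% of all genes), and 8 higher and 2 lower at 6 months (14.2% and 13.1%). Past 2-fold at both ages were 8 members that stood higher (Itga11, Itgae, Itgax, Itgb2, Itgb5, Itgb7, Lama5 and Lamc3, 22.2% against 7.12% of genes) and 4 that stood lower (Itga1, Itga6, Itgb1 and Itgb6, 11.1% against 16.6%). With the GC trend subtracted, Itgae, Itgax and Itgb7 were the members still past 2-fold at both ages, all higher, and that share of 8.33% was close to the 6.46% of genes. The 2 controls differed too: at 6 months over 2 months, 6 of 36 members were past 2-fold higher and 1 lower, against 8.15% and 5.21% of genes. Those 6 were Itga11, Itgae, Itgam, Itgax, Itgb2 and Lamc3.

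Over both ages limma called 9 of 36 members higher in csPIMT-/- (Itga11, Itgae, Itgam, Itgax, Itgb2, Itgb5, Itgb7, Lama5 and Lamc3, 25.0% against 12.4% of genes) and 5 lower (Itga1, Itga6, Itgb1, Itgb6 and Lama4, 13.9% against 18.8%). Itgad was too low to enter the fit. Both csPIMT-/- libraries lay above both controls for 13 members (36.1%), against 34.9% of genes, and below both for 9 (25.0%), against 36.1%. The calls depended on the model. With the GC trend subtracted limma called none of the 36 members, although 9 stood higher and 7 lower at an unadjusted p below 0.05, and it called none of 13567 genes. edgeR on the recovered reads called 9 higher and 4 lower, and DESeq2 called 11 and 5, both without a GC term. Leaving out 1 library leaves a genotype with a single library, and no member stayed called in every such fit. Itga11, Itgam, Lama4 and Lamc3, called with all 4 libraries, were not called without the 2-month csPIMT-/- library.

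**Figure D2:**
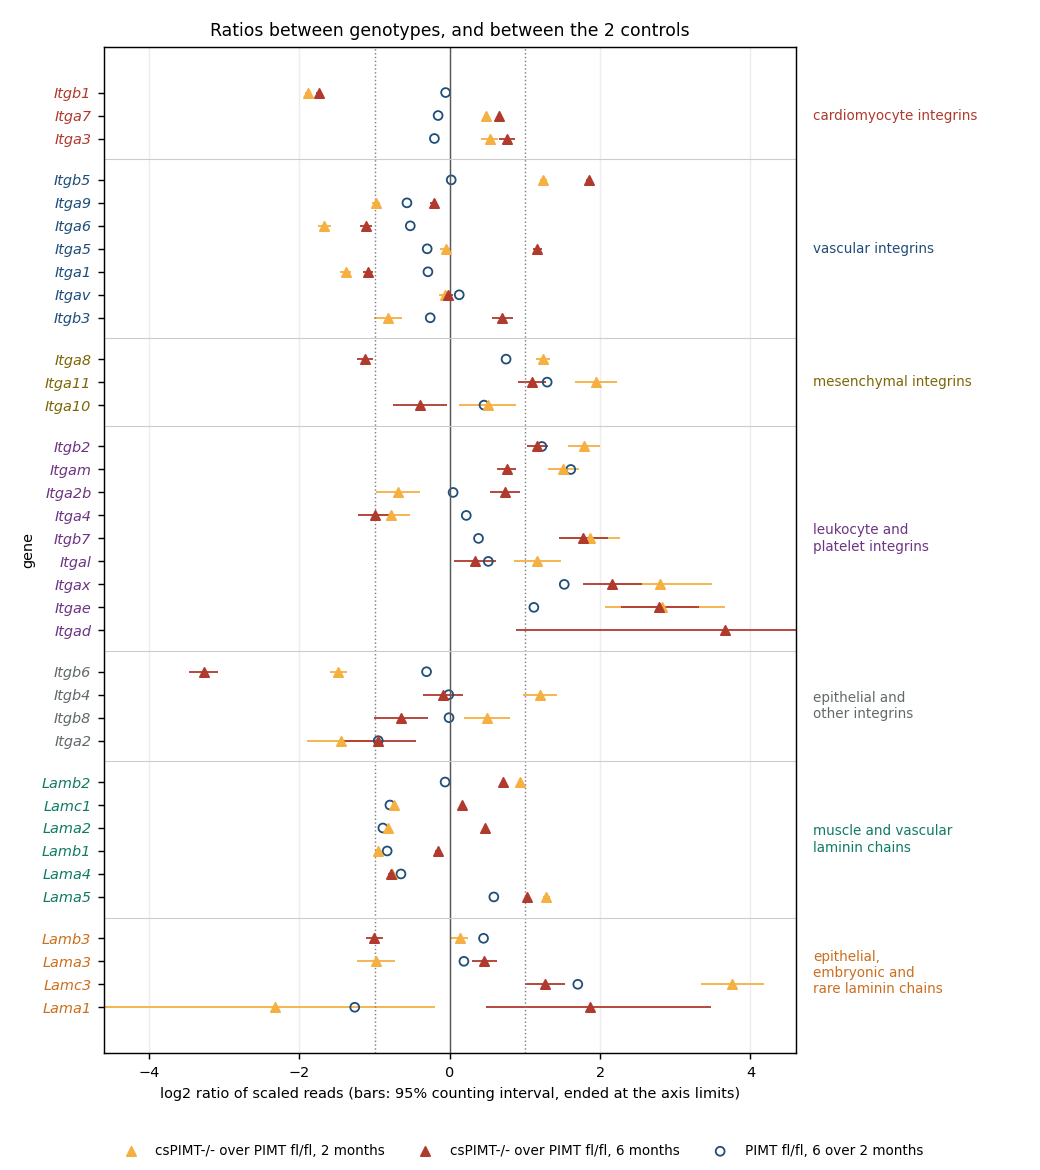
log2 ratio of scaled reads for the members, csPIMT-/- over PIMT fl/fl at 2 and 6 months (triangles, with 95% counting intervals ended at the axis limits) and PIMT fl/fl at 6 over 2 months (open circles), with dotted lines at 2-fold. Itgb1 and Itgb6 lay far to the left while their controls lay near 0, and for Itgam, Itgb2, Itgax and Lamc3 the 2 controls were themselves more than 2-fold apart.

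Among the cardiomyocyte integrins, Itgb1 fell and the α subunits that pair with it in muscle did not. Itgb1 had 26474 and 26230 reads in the controls of 2 and 6 months and 5135 and 6824 in csPIMT-/-. The controls nearly coincided, and both csPIMT-/- libraries were far below them. Its ratios were 0.271 (0.263 to 0.279) at 2 months and 0.2998 (0.292 to 0.308) at 6 months, and its log2 difference was -1.78 (SE 0.22, adjusted p = 0.00828). Itgb1 (chr8:128685654-128733200, GRCm38) encodes the β1 subunit, and it had the smallest adjusted p of all members. The ratios with the GC trend subtracted were 0.451 and 0.554.

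Itga7, the α7 subunit of the laminin receptor of striated muscle, had 16655 and 15395 reads in the controls and 16631 and 21073 in csPIMT-/-. Once scaled, both csPIMT-/- libraries lay above both controls, with ratios of 1.40 and 1.58. limma gave a log2 difference of 0.60 (SE 0.23, adjusted p = 0.0920), which is not a call, and with the GC trend subtracted the ratios were 0.878 and 0.983. Itga3, the α3 subunit of another laminin receptor, had 1360 and 1215 reads in the controls and 1405 and 1794 in csPIMT-/-. It behaved much like Itga7, with ratios of 1.44 and 1.70 and no call (log2 difference 0.67, SE 0.23, adjusted p = 0.0691). The GC-subtracted ratios of Itga3 were 0.906 and 1.06.

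Because both genes are read in the same library, the ratio of 2 subunits does not depend on scaling, but it does carry any difference in GC content between them. Itga7 over Itgb1 per kb was 0.597 and 0.557 in the controls and 3.07 and 2.93 in csPIMT-/-. In both controls the β1 transcript thus outnumbered the α7 transcript per kb, and in both csPIMT-/- libraries the order was the other way round. The ratio was 5.15 and 5.26 times that of the control at 2 and 6 months, and 1.95 and 1.78 times with the GC trend subtracted from both genes. Itga6 over Itga7, the 2 laminin-binding α subunits that are closest in sequence, was 0.338 and 0.262 in the controls and 0.0762 and 0.0767 in csPIMT-/-, a change by a factor of 0.226 and 0.293, or of 0.405 and 0.521 with the GC trend subtracted. The encoded α6 and α7 proteins have 51.4% of residues in common over the shorter one, and β1 and β5 42.7%.

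Among the 7 vascular integrins, Itga1 and Itga6 fell, Itgb5 rose, and limma called none of Itga5, Itga9, Itgav and Itgb3. Itga1, the α1 subunit of a collagen and laminin receptor, had 8192 and 6894 reads in the controls and 2244 and 2807 in csPIMT-/-. Both csPIMT-/- libraries were well below both controls, with ratios of 0.383 and 0.469 (log2 difference -1.21, SE 0.21, adjusted p = 0.0132). Its transcript is poor in GC (42.8%), and with the GC trend subtracted the ratios were 0.776 and 1.10, so that the 6-month value changed side.

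Itga6, the α6 subunit of laminin receptors of endothelium and other cells, had 6034 and 4316 reads in the controls and 1359 and 1733 in csPIMT-/-. The libraries of the 2 genotypes did not overlap, and the controls differed by a ratio of 0.695 (6 over 2 months). The ratios were 0.315 and 0.463 (log2 difference -1.36, SE 0.23, adjusted p = 0.0128), and with the GC trend subtracted 0.356 and 0.512. Itga9, whose α9 subunit pairs with β1 and binds tenascin and other ligands, had 12965 and 8993 reads in the controls and 4698 and 6733 in csPIMT-/-. Its ratios were 0.506 and 0.863, with no call (log2 difference -0.57, SE 0.26, adjusted p = 0.136), and 0.446 and 0.719 with the GC trend subtracted. The 2 controls of Itga9 were themselves a ratio of 0.674 apart.

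Itgb5, whose β5 subunit joins αv in a receptor for vitronectin, had 6909 and 7205 reads in the controls and 11720 and 22507 in csPIMT-/-. The controls coincided after scaling (ratio 1.01), and both csPIMT-/- libraries stood far above them. The ratios were 2.37 (2.30 to 2.44) at 2 months and 3.60 (3.51 to 3.70) at 6 months, the log2 difference was 1.57 (SE 0.24, adjusted p = 0.0103), and with the GC trend subtracted they were 1.52 and 2.29. Itgb5 lies at chr16:33829665-33949338. Its partner Itgav had 3300 and 3707 reads in the controls and 2261 and 3159 in csPIMT-/-, with ratios of 0.957 and 0.982 (log2 difference -0.02, SE 0.21, adjusted p = 0.953). The GC content of Itgav was 43.6%, and its GC-subtracted ratios were 1.81 and 2.12. Itgb5 over Itgav per kb went from 4.50 and 4.18 in the controls to 11.1 and 15.3, and Itgb5 over Itgb1 from 0.303 and 0.319 to 2.65 and 3.83. With the GC trend subtracted the factors between genotypes were 0.841 and 1.08 for Itgb5 over Itgav, on opposite sides of 1, and 3.37 and 4.13 for Itgb5 over Itgb1.

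Itga5, the α5 subunit of the fibronectin receptor, had 3821 and 3194 reads in the controls and 2636 and 6220 in csPIMT-/-. Its 2-month ratio was 0.964 (0.917 to 1.01) and its 6-month ratio 2.24, so 1 of the 2 csPIMT-/- libraries lay among the controls (log2 difference 0.58, SE 0.32, adjusted p = 0.202). They were 0.613 and 1.42 with the GC trend subtracted. Itgb3, the β3 subunit of the second vitronectin receptor, which platelets also carry with αIIb, had 777 and 668 reads in the controls and 315 and 942 in csPIMT-/-. The ratios pointed in opposite directions, 0.566 and 1.63, with a log2 difference of -0.03 (SE 0.40, adjusted p = 0.956), and were 0.478 and 1.30 with the GC trend subtracted. Endothelial markers moved with age and genotype as well: the 6 genes summed to 1670 and 1201 CPM in the controls and 1119 and 1172 in csPIMT-/-, and 1 of 6 was higher in csPIMT-/- at 2 months and 3 of 6 at 6 months. The markers did not move alike. Kdr, the main receptor for vascular endothelial growth factor, stood at 438 and 305 CPM in the controls and 193 and 167 in csPIMT-/-, and Tek at 184 and 163 against 77.4 and 90.5. At 6 months Pecam1 stood higher in csPIMT-/- (265 against 327 CPM), as did Cdh5 (224 against 281) and Tie1 (182 against 276), and at 2 months Emcn did (64.0 against 71.9). The part of endothelium in the values of these integrins was not tested.

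**Figure D3:**
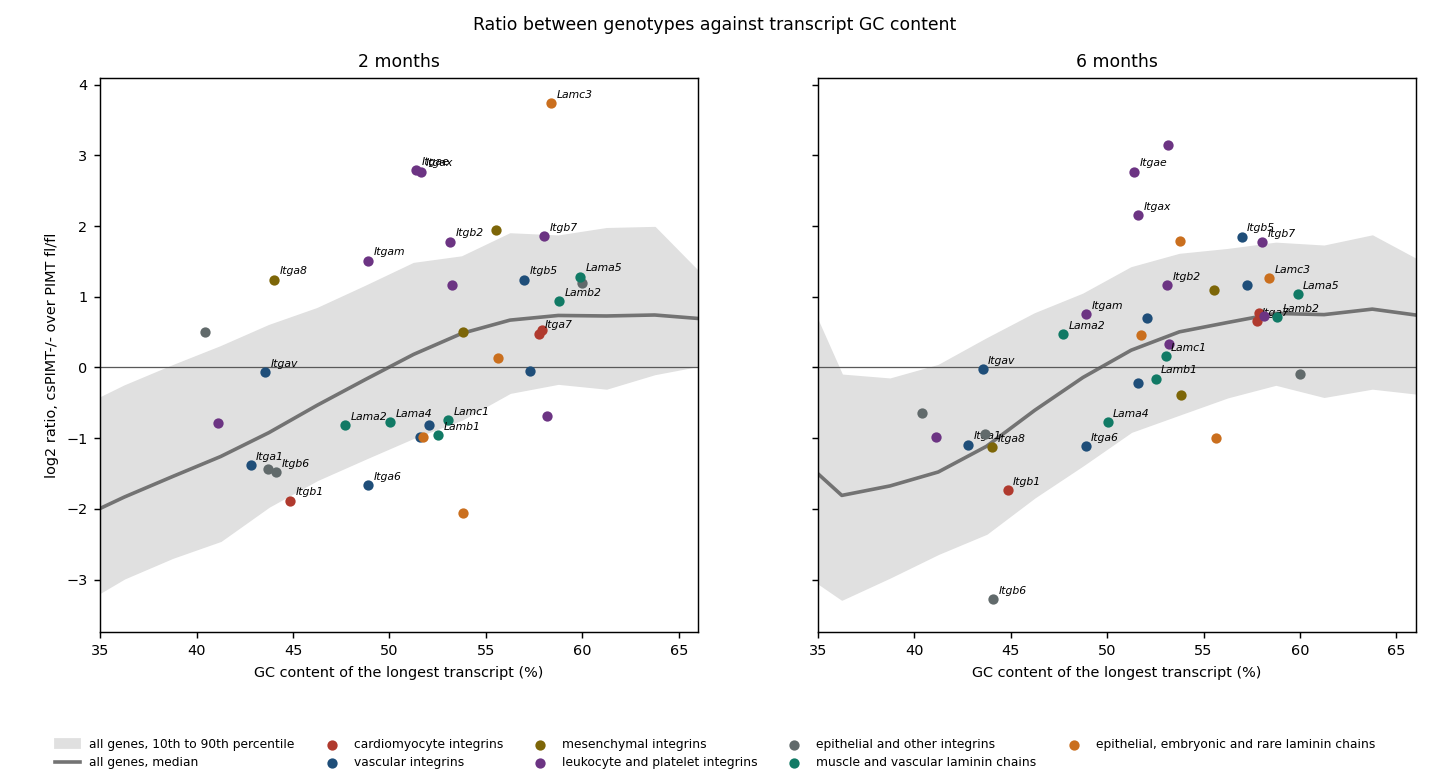
log2 ratio of csPIMT-/- over PIMT fl/fl at 2 months (left) and 6 months (right) against the GC content of the longest transcript (%), for the members, coloured by list. The grey line and band are the median and the 10th to 90th percentiles of all genes in bins of 2.5% GC with at least 20 genes. Itgb1, Itga6 and Itgb6 (6 months) lay below the line of genes of like GC content, and Itgae, Itgax and Itgb5 above it.

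The 3 mesenchymal integrins gave 1 call. Itga11, the α11 subunit of a collagen receptor of fibroblasts, had 146 and 369 reads in the controls and 402 and 683 in csPIMT-/-. The controls were a ratio of 2.45 apart, and both csPIMT-/- libraries lay above the higher one. Its ratios were 3.85 and 2.13 (log2 difference 1.54, SE 0.36, adjusted p = 0.0261), and 2.58 and 1.42 with the GC trend subtracted. Against the control of the other age, the 2-month log2 ratio was 0.56 in place of 1.94. Itga8, the α8 subunit of smooth muscle and mesenchyme, had 1529 and 2645 reads in the controls and 2589 and 1049 in csPIMT-/-. It was high in 1 library of each genotype, and the ratios of 2.37 and 0.457 gave no call (log2 difference 0.08, SE 0.54, adjusted p = 0.916). Its GC-subtracted ratios were 4.26 and 0.934. An antisense gene, E030013I19Rik, shares 372 of its 7368 exon bases, and whether the counting used the strand is not stated. Itga10, a collagen receptor subunit of cartilage, had between 111 and 168 reads in all 4 libraries, with ratios of 1.42 and 0.761 and no call (log2 difference 0.08, SE 0.46, adjusted p = 0.903). They were 1.05 and 0.544 with the GC trend subtracted. Fibroblast markers (5 genes) summed to 3509 and 2014 CPM in the controls and 3141 and 3314 in csPIMT-/-. Of the 5, 2 were higher in csPIMT-/- at 2 months and 4 at 6 months. Lum was lower at both ages (256 and 189 CPM in the controls against 126.5 and 107), while Pdgfra stood at 171 and 149 against 174 and 334.5. The fibroblast part in these values was not tested. Of the 4 smooth muscle markers, Myh11 and Cnn1 were highest in the same libraries as Itga8, which itself stood at 36.7 and 64.4 CPM in the controls and 89.6 and 29.6 in csPIMT-/-. Myh11, the smooth muscle myosin, had 94.7 and 168 CPM in the controls and 246 and 92.7 in csPIMT-/-, and Cnn1, calponin, 6.32 and 31.5 against 82.6 and 25.7. Tagln had 51.8 and 131.5 CPM in the controls and 270.3 and 134.8 in csPIMT-/-, so unlike Itga8 it was not lower in csPIMT-/- at 6 months. Acta2, which made up most of the sum, was highest in the 2-month control instead (1232 and 663 CPM against 1150 and 486). All 4 together summed to 1385 and 993 in the controls and 1749 and 739 in csPIMT-/-, 3 of 4 were higher in csPIMT-/- at 2 months and 1 of 4 at 6 months, and their part in the Itga8 values was not tested.

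Of the 9 leukocyte and platelet integrins, 5 rose in csPIMT-/- (Itgae, Itgam, Itgax, Itgb2 and Itgb7), none fell, and limma called none of the other 3 in the fit. Itgb2, the β2 subunit common to the leukocyte-specific integrins, had 261 and 628 reads in the controls and 642 and 1219 in csPIMT-/-. Both csPIMT-/- libraries lay above both controls, although the controls alone were a ratio of 2.34 apart. Its ratios were 3.44 and 2.24 (log2 difference 1.50, SE 0.30, adjusted p = 0.0181), and 2.66 and 1.66 with the GC trend subtracted.

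Itgam, which encodes the αM subunit (CD11b) of monocytes, macrophages and neutrophils, had 276 and 867 reads in the controls and 563 and 1272 in csPIMT-/-. The 2-month csPIMT-/- library lay below the 6-month control once scaled, so the genotypes overlapped. The ratios within each age were 2.85 and 1.69 (log2 difference 1.16, SE 0.31, adjusted p = 0.0370), and 3.21 and 1.87 with the GC trend subtracted. Against the control of the other age the 2-month log2 ratio was -0.18, on the other side of 0. The annotated gene Gm49368 shares 3450 of the 5024 exon bases of Itgam on the same strand, but its symbol is absent from the deposited values.

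Itgax, the αX subunit (CD11c) of dendritic cells and some macrophages, had 24 and 71 reads in the controls and 119 and 275 in csPIMT-/-. The genotypes did not overlap, with ratios of 6.93 (4.44 to 11.2) and 4.46 (3.43 to 5.88). The log2 difference was 2.47 (SE 0.48, adjusted p = 0.0169), and the GC-subtracted ratios were 5.98 and 3.69. Itgae, the αE subunit (CD103) of epithelium-associated lymphocytes and dendritic cells, had 17 and 38 reads in the controls and 86 and 227 in csPIMT-/-. It showed the highest called log2 difference among the members, 2.77 (SE 0.52, adjusted p = 0.0152), with ratios of 7.07 (4.17 to 12.7) and 6.88 (4.87 to 9.98), or 6.18 and 5.78 with the GC trend subtracted. Itgb7, the β7 subunit that joins αE and α4, had 79 and 106 reads in the controls and 206 and 315 in csPIMT-/-. The genotypes were clearly apart, with ratios of 3.64 and 3.43 (log2 difference 1.84, SE 0.40, adjusted p = 0.0214) and 2.27 and 2.12 with the GC trend subtracted.

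Itga4, the α4 subunit of lymphocytes and monocytes, which binds Vcam1 and fibronectin, stood lower in place of higher. It had 412 and 494 reads in the controls and 171 and 216 in csPIMT-/-, ratios of 0.580 and 0.504, and a log2 difference of -0.86 (SE 0.33, adjusted p = 0.0959) that was not called. Its transcript has 41.1% GC, and with the GC trend subtracted the ratios were 1.38 and 1.37. Cerkl, on the opposite strand, shares 1124 of its 13978 exon bases. Itgal, the αL subunit (CD11a) of T cells and other leukocytes, had 141 and 207 reads in the controls and 226 in each csPIMT-/- library. Once scaled, both lay above both controls, with ratios of 2.24 and 1.26 and no call (log2 difference 0.77, SE 0.41, adjusted p = 0.192), and 1.72 and 0.927 with the GC trend subtracted. Itga2b, the αIIb subunit of platelets and megakaryocytes, had 322 and 342 reads in the controls and 143 and 493 in csPIMT-/-. Its ratios of 0.620 and 1.66 pointed in opposite directions (log2 difference 0.05, SE 0.43, adjusted p = 0.938) and were 0.388 and 1.03 with the GC trend subtracted. Itgad had 8, 1, 5 and 11 reads in the controls of 2 and 6 months and the csPIMT-/- libraries of 2 and 6 months, too few to compare.

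Markers of leukocytes moved with these integrins. The 8 leukocyte markers found summed to 146 and 297 CPM in the controls and 335 and 440 in csPIMT-/-, and 7 of 8 were higher at 2 months and 4 of 8 at 6 months, while 7 of 8 were higher in the 6-month than in the 2-month control. Csf1r, the receptor of macrophage colony-stimulating factor, made up most of the sum, with 93.3 and 177 CPM in the controls and 242 and 294 in csPIMT-/-. Cd68, a lysosomal protein of macrophages, went from 4.95 and 9.55 to 20.3 and 20.2. Ptprc (CD45), the pan-leukocyte phosphatase, with a transcript of 39.4% GC, moved the other way at both ages, at 11.4 and 26.2 in the controls and 6.16 and 11.4 in csPIMT-/-. The T cell gene Cd3e had at most 13 reads in any library. The part of leukocyte number in the rise of the leukocyte integrins was not tested. Platelet markers (4 genes) summed to 25.1 and 34.4 in the controls and 42.6 and 42.2 in csPIMT-/-, and Pf4 made up most of the sum. Of the 4, 2 were higher in csPIMT-/- at 2 months and 4 at 6 months. At 2 months Gp9 (1.80 CPM in the control against 0.9) and Ppbp (4.85 against 3.74) were lower.

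The epithelial and other integrins held 1 call, Itgb6, which fell. Itgb6, the β6 subunit that joins αv in a receptor that activates latent TGF-β, had 3142 and 2611 reads in the controls and 804 and 234 in csPIMT-/-. The controls were alike, the 2-month csPIMT-/- library was lower and the 6-month one lower still. Its ratios were 0.357 (0.3303 to 0.386) and 0.103 (0.08996 to 0.118), with a log2 difference of -2.35 (SE 0.44, adjusted p = 0.0152), the lowest called value among the members. With the GC trend subtracted they were 0.639 and 0.209. Itga2, the α2 subunit of a collagen receptor, had 201 and 107 reads in the controls and 53 and 48 in csPIMT-/-. It lay below both controls, with ratios of 0.368 and 0.517 and no call (log2 difference -1.16, SE 0.48, adjusted p = 0.111), and with the GC trend subtracted the ratios were 0.691 and 1.11.

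Itgb4, the β4 subunit that joins α6 in epithelial hemidesmosomes, had 254 and 259 reads in the controls and 418 and 211 in csPIMT-/-. Only the 2-month csPIMT-/- library was high, with ratios of 2.30 and 0.939 and no call (log2 difference 0.58, SE 0.43, adjusted p = 0.333). They were 1.41 and 0.563 with the GC trend subtracted. Itgb8, the β8 subunit, which also activates TGF-β with αv, had 180 and 184 reads in the controls and 182 and 102 in csPIMT-/-. The ratios lay on opposite sides of 1, at 1.41 and 0.639 (log2 difference -0.05, SE 0.46, adjusted p = 0.945), and were 3.58 and 1.82 with the GC trend subtracted. Markers of other tissue differed between the libraries as well. The 6 epithelial and mesothelial markers summed to 15.2 and 14.6 CPM in the controls and 119 and 153 in csPIMT-/-, all 6 higher at 2 months and 3 at 6 months, when Krt18 alone gave 136. The 5 lung and airway markers summed to 32.6 in the 2-month csPIMT-/- library and to at most 0.480 in the others, with Sftpa1 at 0 in both controls. Of the 2 brown fat markers, Ucp1 had 10 and 106 reads in the controls and 1432 and 12 in csPIMT-/-. Cidea had 2183 and 1154 against 2077 and 2499. The part of such tissue in Itgb4, or in the epithelial laminin chains below, was not tested.

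The laminin chains of muscle and vessels did not move together. Lama2, Lamb1 and Lamc1 encode the chains of laminin-211, while Lamb2 gives the β chain of laminin-221 and Lama4 and Lama5 the α chains of vessels. Lama4 fell, Lama5 rose, and limma called none of Lama2, Lamb1, Lamb2 and Lamc1, although DESeq2 called Lamb2. For Lama2, Lama4, Lamb1 and Lamc1 the 2-month control stood high, with ratios of the 6-month over the 2-month control of 0.540, 0.637, 0.561 and 0.576. At 2 months the csPIMT-/- ratios of these 4 genes were between 0.514 and 0.598, close to the distance between the controls.

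Lama2, the α2 chain, whose loss causes muscular dystrophy, had 42153 and 23423 reads in the controls and 17103 and 28237 in csPIMT-/-. In CPM the 2-month control was the highest and the 6-month control the lowest, with both csPIMT-/- libraries between them. With median-of-ratios factors the 2-month csPIMT-/- library lay just below the 6-month control instead (ratio 0.9901). Its ratios were 0.567 and 1.39 (log2 difference -0.15, SE 0.35, adjusted p = 0.770), and 0.716 and 1.77 with the GC trend subtracted. Lamc1, the γ1 chain common to most laminins, had 40347 and 23918 reads in the controls and 17277 and 23181 in csPIMT-/-. It followed Lama2, with ratios of 0.598 and 1.12 (log2 difference -0.26, SE 0.30, adjusted p = 0.519), and 0.467 and 0.832 with the GC trend subtracted. Lamc1 over Lama2 per kb stayed between 1.04 and 1.29 in the 4 libraries, although with the GC trend subtracted its factors between genotypes were 0.652 and 0.471.

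Lama4, the α4 chain of endothelial basement membrane, had 21173 and 13898 reads in the controls and 8875 and 7039 in csPIMT-/-. Both csPIMT-/- libraries lay below both controls, the 2-month one by little. The ratios were 0.585 and 0.584, the log2 difference was -0.75 (SE 0.22, adjusted p = 0.0448), and with the GC trend subtracted they were 0.595 and 0.570. Against the control of the other age, the 2-month log2 ratio was -0.21 and the 6-month one -1.35. edgeR did not call Lama4 on the same reads.

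Lamb1, the β1 chain, had 24086 and 13922 reads in the controls and 8863 and 10838 in csPIMT-/-. Both csPIMT-/- libraries lay just under the lower control, with ratios of 0.514 and 0.897 and no call (log2 difference -0.53, SE 0.27, adjusted p = 0.174). The GC-subtracted ratios were 0.418 and 0.692. Lamb2, the β2 chain of muscle, neuromuscular junction and glomerulus, had 35649 and 35153 reads in the controls and 48797 and 50018 in csPIMT-/-. Its controls coincided (ratio 0.958), and both csPIMT-/- libraries stood above them with ratios of 1.91 and 1.64. limma gave a log2 difference of 0.85 (SE 0.27, adjusted p = 0.0564), just short of a call, and with the GC trend subtracted the ratios were 1.19 and 1.003.

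Lama5, the α5 chain of vessels and epithelia, had 6311 and 9752 reads in the controls and 10991 and 17317 in csPIMT-/-. Its controls were a ratio of 1.50 apart, and both csPIMT-/- libraries lay above the higher one. The ratios were 2.43 and 2.05 (log2 difference 1.19, SE 0.22, adjusted p = 0.0151), and 1.49 and 1.23 with the GC trend subtracted. Within the libraries, Lamb2 over Lamb1 per kb was 1.52 and 2.60 in the controls and 5.66 and 4.74 in csPIMT-/-, so that both csPIMT-/- libraries exceeded both controls, and with the GC trend subtracted the factors between genotypes were 2.84 and 1.45. Lama5 over Lama2 was 0.126 and 0.352 in the controls and 0.543 and 0.518 in csPIMT-/-, but with the GC trend subtracted the factor was 2.08 at 2 months and 0.697 at 6 months, on opposite sides of 1. For Lama4 over Lama2 the values were 0.799 and 0.944 against 0.825 and 0.396, so only the 6-month csPIMT-/- library stood apart, with factors of 0.831 and 0.323 once the GC trend was subtracted.

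**Figure D4:**
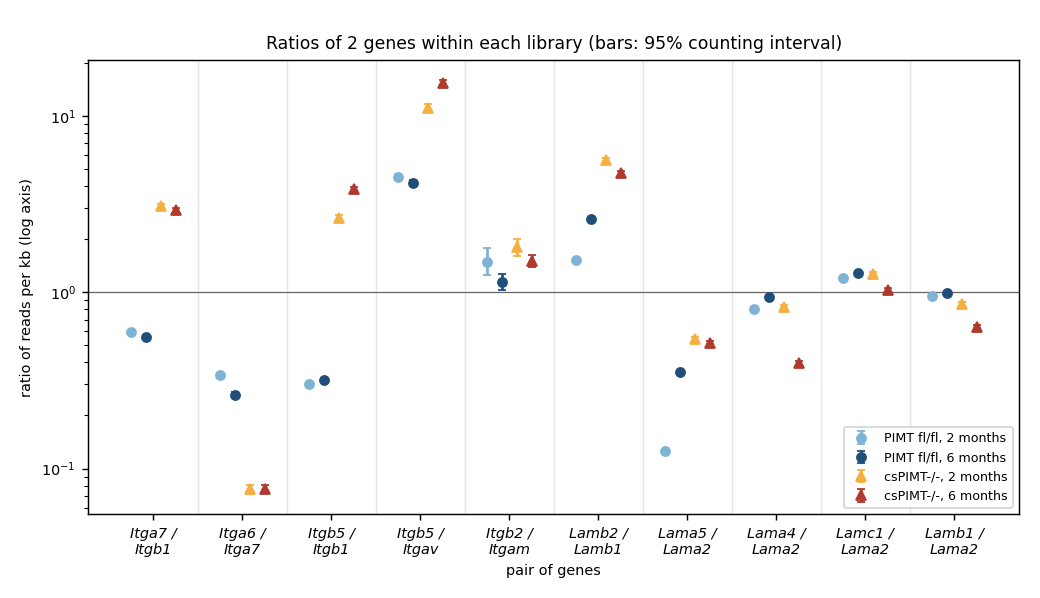
Ratio of reads per kb of 2 genes within each library, on a log axis, with 95% counting intervals. Circles are PIMT fl/fl and triangles csPIMT-/-, at 2 and 6 months. Itga7 over Itgb1 and Itgb5 over Itgb1 lay below 1 in both controls and above 1 in both csPIMT-/- libraries, while Lamc1 over Lama2 stayed near 1. The GC trend is not subtracted here.

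Of the 5 epithelial, embryonic and rare laminin chains, Lamc3 rose and limma called no other. Lamc3, the γ3 chain, had 54 and 181 reads in the controls and 520 and 377 in csPIMT-/-. It was high in both csPIMT-/- libraries, most in that of 2 months, and the controls were a ratio of 3.26 apart. The ratios were 13.5 (10.2 to 18.2) at 2 months and 2.40 (2.01 to 2.88) at 6 months, with a log2 difference of 2.52 (SE 0.62, adjusted p = 0.0301), and 8.31 and 1.48 with the GC trend subtracted. Lama3 and Lamb3 encode chains of laminin-332, the anchor of epithelial hemidesmosomes. Lama3 had 479 and 562 reads in the controls and 174 and 670 in csPIMT-/-, with ratios of 0.507 and 1.37 (log2 difference -0.23, SE 0.41, adjusted p = 0.687) and of 0.441 and 1.13 with the GC trend subtracted. Lamb3 had 1405 and 1975 reads in the controls and 1103 and 855 in csPIMT-/-, with ratios of 1.10 and 0.499 (log2 difference -0.41, SE 0.33, adjusted p = 0.375) and of 0.733 and 0.332 with the GC trend subtracted. Thus these 2 chains had ratios on opposite sides of 1 at each age. Lama1, the α1 chain of embryonic basement membrane, had 14, 6, 2 and 19 reads in the controls of 2 and 6 months and the csPIMT-/- libraries of 2 and 6 months.

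The partners of integrins and laminins were taken from a list of 51 genes, of which 50 were found. At 2 months 7 of 49 were past 2-fold higher and 5 lower, against 16.4% and 23.0% of all genes. At 6 months the counts were 11 and 3 of 48, against 16.0% and 25.7%, and limma called 9 higher and 3 lower of 48, against 12.4% and 18.8%. The median log2 ratio of the list was 0.15 at 2 months and 0.56 at 6 months. Of the 23 cytoplasmic partners in the fit, 3 fell and 6 rose (Fermt3, Lims2, Ptk2b, Src, Tln1 and Tns3), against 18.8% and 12.4% of all genes. With the GC trend subtracted limma called none of the 23, and none of 13567 genes. Lims1 (PINCH1), the adaptor of integrin-linked kinase, had 10984 and 13054 reads in the controls and 2183 and 2576 in csPIMT-/-, ratios of 0.278 and 0.227 (log2 difference -1.97, SE 0.22, adjusted p = 0.00802). Fermt2 (kindlin-2), which activates β1 and β3 integrins in muscle, had 10783 and 9216 against 2513 and 4041, with ratios of 0.326 and 0.505 (log2 difference -1.28, SE 0.24, adjusted p = 0.0154). Ptk2 (focal adhesion kinase) had 3967 and 3051 against 1260 and 1291, with ratios of 0.444 and 0.488 (log2 difference -1.08, SE 0.22, adjusted p = 0.0177). All were lower in both csPIMT-/- libraries than in both controls. The GC content of these 3 transcripts was between 40.7% and 47.0%, and their GC-subtracted ratios were between 0.486 and 0.803.

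Other partners rose. Fermt3 (kindlin-3), the kindlin of blood cells, had 511 and 795 reads in the controls and 887 and 1577 in csPIMT-/-, with ratios of 2.42 and 2.29 (log2 difference 1.26, SE 0.25, adjusted p = 0.0173), and of 1.53 and 1.43 with the GC trend subtracted. Icam1, the ligand of the β2 integrins, had 813 and 1036 against 1920 and 2485, with ratios of 3.30 and 2.76 (log2 difference 1.62, SE 0.23, adjusted p = 0.00922), and of 2.23 and 1.85 with the GC trend subtracted. Cyr61, a matrix protein bound by αv integrins, had 2951 and 2945 against 4773 and 15624, with ratios of 2.26 and 6.11 (log2 difference 1.92, SE 0.35, adjusted p = 0.0146), and it had no GC value to subtract. Ptk2b, the relative of focal adhesion kinase, and the kinase Src rose by log2 differences of 1.02 and 1.01 (adjusted p = 0.0276 and 0.0328). Their GC-subtracted ratios were 1.23 and 1.61 for Ptk2b and 1.21 and 1.20 for Src. Talin-1 (Tln1), which links β subunits to actin, rose as well, by 0.88 (SE 0.25, adjusted p = 0.0411), with GC-subtracted ratios of 1.08 and 1.23.

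limma called none of the remaining partners of fixed choice. Talin-2 (Tln2), the muscle talin, had ratios of 0.769 and 0.857 (adjusted p = 0.357), vinculin (Vcl) 0.586 and 0.948 (adjusted p = 0.262) and integrin-linked kinase (Ilk) 1.20 and 1.79 (adjusted p = 0.106) in the limma fit. Melusin (Itgb1bp2), a muscle protein that binds the β1 tail, had 7565 and 8403 reads in the controls and 6784 and 6254 in csPIMT-/-, with ratios of 1.25 and 0.858 (adjusted p = 0.819). Dystroglycan (Dag1), the other laminin receptor of muscle, had 17260 and 17140 against 12496 and 18868, with ratios of 1.01 and 1.27 (adjusted p = 0.518). Nidogen-1 (Nid1) and perlecan (Hspg2) link laminin to the rest of the basement membrane. Their ratios of the 6-month over the 2-month control were 0.620 and 0.626. Those of Lama2, Lama4, Lamb1 and Lamc1 were similar, but those of Lamb2 (0.958) and Lama5 (1.50) were not. Between genotypes Nid1 had ratios of 0.518 and 1.35 at 2 and 6 months and Hspg2 of 1.05 and 1.13. With the GC trend subtracted they were 0.510 and 1.275 for Nid1 and 0.637 and 0.669 for Hspg2. limma gave adjusted p of 0.641 and 0.714.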

How the data were processed

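RNA-seq was analysed in 4 mouse heart libraries, each of 5 pooled hearts. The authors trimmed the 50-base reads of directional libraries, removed ribosomal reads, aligned the rest to mm10 with STAR, counted reads per gene with htseq-count (HTSeq 0.6.1p1 per the submitters' processing notes) and a UCSC annotation, and used DESeq2. The deposited values are a normalized signal per gene symbol, read counts divided by a size factor, also where the 6-month csPIMT-/- column is headed as read counts. Use of the strand in counting, and a sequencing batch or date, are not given in the sources used here.

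Divided by the value of 1 read, all values came out whole (100.0% within 0.01 of a read, largest deviation 4.89e-09), so whole reads were recovered. Ratios used median-of-ratios factors of the 2 libraries compared and genes with 10 reads in 1 of them, 0.5 reads added on the log2 scale, and 95% Clopper-Pearson intervals of the 2 counts, which hold counting error only. GC content came from each symbol's longest GENCODE M21 transcript (GRCm38), which 90.7% and 90.6% of the compared genes had at 2 and 6 months. The GC trend was a lowess curve with a span of 0.3. The main test was limma 3.58.1 with a mean trend on log2 of TMM-scaled reads plus 1, with genotype and age over 4 libraries (1 residual and 5.04 prior degrees of freedom), so the log2 differences of low genes are understated. A count test on the recovered reads, edgeR 4.0.16 quasi-likelihood, called 2508 genes lower and 1619 higher of 14935, and DESeq2 1.42.0 called 2994 and 2201. No single age was tested, since each had 1 library a group. The scripts were tested on simulated data.

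The members, the lists of cells and partners, and the tests were chosen with earlier results of these data known, so none of them is independent evidence. Members were named, apart from 1 that is not reported here, with full values for those with 100 reads in 1 library, and of the partners the 8 called with the largest log2 differences and 8 of fixed choice (Tln1, Tln2, Vcl, Ilk, Itgb1bp2, Dag1, Nid1 and Hspg2). Alternatives were another scaling, pseudocount, filter and control, the GC trend subtracted, no mean trend, genotype alone, edgeR, DESeq2 and leaving out each library. The GC-subtracted counts of non-overlap, of the partner list and of both ages were added after seeing the data, as were another scaling for non-overlap and the other control for both ages, and the GC-subtracted change of ratios within a library.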

Additional observations from a re-analysis of the deposited data

Results flagged for a closer look

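For 10 members the csPIMT-/- over PIMT fl/fl ratio of scaled reads lay above 1 at one age and below 1 at the other, with counting intervals that leave out 1. Each age is 1 pair of libraries, and the difference between the ages was not tested. Among the integrins, the ratio at 2 and at 6 months was 1.42 and 0.761 for Itga10, 2.37 and 0.457 for Itga8, and 1.41 and 0.639 for Itgb8, higher first and lower later. Itga2b, with 0.620 and 1.66, and Itgb3, with 0.566 and 1.63, the subunits that form the platelet receptor together, went the opposite way, lower at 2 months and higher at 6 months.

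Among the laminin chains, Lama2 had ratios of 0.567 and 1.39 and Lamc1 of 0.598 and 1.12. The 2-month control stood above the 6-month control in both, by the ratios given in the report. Lama3 had 0.507 and 1.37, and Lamb3 1.10 and 0.499. Lama1 had 0.1995 (0.0220 to 0.869) and 3.65 (1.40 to 11.2), from at most 19 reads in any library.

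The change of side was not stable. With the GC trend subtracted, Itgb8 stood above 1 at both ages (3.58 and 1.82), and Lamb3 (0.733 and 0.332) and Lamc1 (0.467 and 0.832) below 1 at both. Against the control of the other age, Itga10 changed side the other way (0.977 and 1.10), and Lama2 (0.9901 and 0.789), Lamc1 (0.9795 and 0.677) and Lamb3 (0.757 and 0.717) were below 1 at both.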

How the results depend on the processing

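No paired analysis was possible because each group is 1 library and the labels give no replicate numbers that groups share. Another scaling, pseudocount or read minimum left each count of members past 2-fold or called within 1.5 times its value. Subtracting the GC trend gave 2 members past 2-fold lower at 6 months, 0 lower and 3 higher at both ages, 0 limma calls in each direction, and for the partner list 1 lower and 6 higher at 6 months and 0 calls in each direction. limma without its mean trend called 0 members in each direction (10 higher and 6 lower at an unadjusted p below 0.05, smallest adjusted p 0.0623). Against the control of the other age, 6 members were past 2-fold higher at 2 months and 5 at both ages. Leaving out 1 library at a time gave between 0 and 4 members called lower and between 0 and 8 higher. The lone library of a genotype is then assumed to vary like the others.

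Some log2 values changed side. Of the ratios past 2-fold at a single age, subtracting the GC trend turned that of Itga1 at 6 months (log2 0.14). Smaller ratios turned as well, among them Itga4 at 2 and 6 months (0.47 and 0.45), Itga2 (0.15) and Itgal (-0.11) at 6 months and Lamb3 at 2 months (-0.45). Over both ages subtracting the trend gave Itga10 -0.39, Itga2b -0.66, Itga3 -0.026, Itga4 0.47 and Itga5 -0.10. It gave Itga7 -0.10, Itgav 0.98, Itgb4 -0.16, Itgb8 1.36 and Lama2 0.18. Against the other control, Itgam at 2 months was -0.18, the turned ratio that had been past 2-fold. Smaller ratios turned here too, among them Itga5 (0.16) and Lamb3 (-0.40) at 2 months and Lama2 (-0.34) and Lamc1 (-0.56) at 6 months. Lama1 was 0.058 with 10 added reads and 0.081 in edgeR. Leaving out 1 library at a time, the log2 difference ranged from -0.17 to 0.34 for Itga10, -0.71 to 0.83 for Itga2b, -0.68 to 0.86 for Itga8, -0.13 to 0.11 for Itgav, -0.69 to 0.65 for Itgb3, -0.021 to 1.20 for Itgb4, -0.57 to 0.50 for Itgb8, -1.42 to 1.21 for Lama1, -0.56 to 0.27 for Lama2, -1.07 to 0.63 for Lama3 and -0.63 to 0.10 for Lamc1. None of these was called in the limma fit, apart from Itga1 and Itgam. The cause of these changes was not tested. Depth limits Itgad, Lama1, Itgae and Itgax, which had under 100 reads in both controls.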
